A study of Mus musculus with 4 samples.

Results

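The genes described here are the translation initiation and elongation factors of the mouse crypt, taken as every gene whose symbol begins with Eif or Eef followed by a digit, without the Eif2ak kinases, the Y-linked copy and genes marked as pseudogenes. The rule found 60 of the 27998 genes counted, 51 Eif and 9 Eef genes. They were followed in single cells from small intestinal crypts of 8-week-old mice, sorted as live EpCAM+ CD45- cells and counted as 3′-end unique molecular identifiers (UMIs), so that a gene's level carries no term for its length. There were 2 libraries from Slc7a5 fl/fl mice, which carry floxed alleles and served as the controls, and 2 from mice labelled slc7a5 IEC-KO, in which Cre under the villin promoter removes the first exon of Slc7a5, a transporter of large neutral amino acids, from intestinal epithelium. Both groups carried the floxed alleles, and the protocol names 4 mice without saying which library each went into, so the p-values below measure only the spread between libraries. Sex-linked genes also differed between the genotypes, with values given below.

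Initiation begins when eIF2, bound to GTP and the initiator tRNA, joins the small ribosomal subunit with eIF1, eIF1A, eIF3 and eIF5. The eIF4 proteins bind the 5′ cap of the mRNA and open its leader, and eIF5B then joins the subunits. Elongation uses eEF1A, which delivers aminoacyl-tRNAs and is recharged by the eEF1B complex, and eEF2, which moves the ribosome along. The 4E-BP proteins hold the cap-binding protein eIF4E away from eIF4G until mTORC1 phosphorylates them. Eif4ebp1, which encodes 4E-BP1, is also known as a target of the transcription factor ATF4. Paneth cells are secretory cells of the crypt base that fill granules with antimicrobial peptides, most of all alpha-defensins.

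Cells were set in classes by the share of their UMIs that came from genes with symbols beginning with Defa, which encode alpha-defensins. Cells at 30% or more were called Paneth cells (2020 and 1950 cells in the fl/fl libraries, 2019 and 2336 in the IEC-KO libraries), and cells under 20% were called low-defensin cells (1493, 1178, 6680 and 6090 in the same order). The cells between the limits were 120 and 89 of the fl/fl cells and 1305 and 1218 of the IEC-KO cells, and entered no test. The median Paneth cell held 46965 and 52851.5 UMIs in the fl/fl libraries but 13782 and 20159 in the IEC-KO libraries. Slc7a5 had 91 and 84 UMIs in Paneth cells of the fl/fl libraries and 128 and 252 in those labelled IEC-KO, so its counts did not fall with the label (log2 fold change 1.71 ± 0.15 SE, adjusted p = 5.3e-09 with edgeR's quasi-likelihood test). The 3′ counts do not read the first exon, so this gene does not check the deletion, and the IEC-KO libraries are named here by their label. The Defa genes themselves took 41.2% and 44.0% of Paneth UMIs in the fl/fl libraries and 36.8% and 37.2% in the IEC-KO libraries. Of 6 other Paneth markers read, 3 fell and 2 rose. Lyz1, the gene of lysozyme, fell from 43173 and 42024 CPM (UMIs of a gene scaled to a common total) to 15198 and 11249.

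The share of UMIs that came from the 60 factors was higher in the IEC-KO libraries in every class. In Paneth cells it was 0.295% and 0.278% in the fl/fl libraries and 0.641% and 0.628% in the IEC-KO libraries, a ratio of means of 2.22. In low-defensin cells it was 1.21% and 1.19% against 1.39% and 1.37%, a ratio of 1.15. The groups did not overlap in either class, but with 2 libraries a group the exact permutation test (two-sided) cannot go below p = 0.333, which is the value in both. Leaving the Defa genes out of the total kept the difference in Paneth cells, at 0.501% and 0.496% against 1.01% and 1.00%. Counted per cell, the order was different. A Paneth cell held a mean of 138 and 147 factor UMIs in the fl/fl libraries and 97.8 and 144 in the IEC-KO libraries, which overlapped, while its total fell from 46748 and 52977 UMIs to 15252 and 22886. A low-defensin cell held a mean of 139 and 149 factor UMIs in the fl/fl libraries and 90.2 and 125 in the IEC-KO libraries. Here both IEC-KO libraries lay below both fl/fl libraries. Its total went from 11499 and 12471 UMIs to 6472 and 9131. Depth per cell thus differed between the libraries in both classes. The parts of RNA per cell and of sequencing per cell in these totals were not tested.

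**Figure D1:**
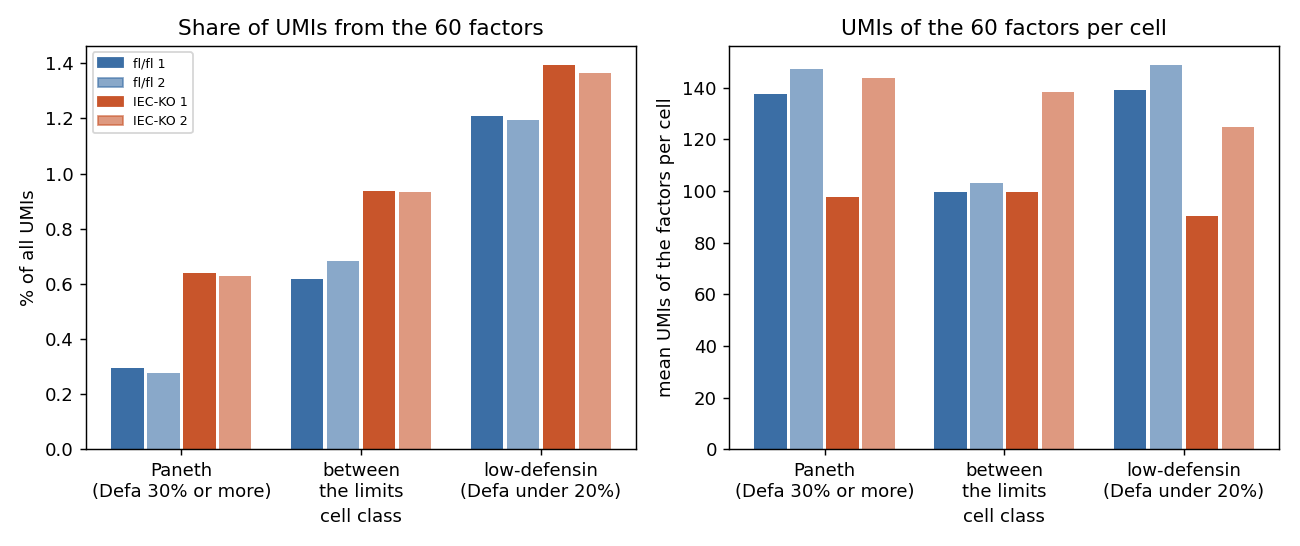
Left, percent of all UMIs that came from the 60 factors in each library, by class of cell, and right, mean UMIs of the 60 factors per cell; each bar is 1 library. In Paneth cells the share was 0.295% and 0.278% in the fl/fl libraries and 0.641% and 0.628% in the IEC-KO libraries, while the mean per cell lay between 97.8 and 147 UMIs in all 4.

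The choice of scale decides what counts as a change. Levels below are CPM scaled by edgeR's trimmed mean of M values (TMM), which sets the typical gene to no change: over all 12492 genes tested in Paneth cells the median log2 fold change was -0.00. Scaled by library size only, the median gene was 0.62 higher (log2) in the IEC-KO Paneth sums, and a factor's fold change rises by the same amount. A fold change below is therefore a change relative to the median gene. Paneth and low-defensin sums were scaled apart from each other, so their CPM values are not compared.

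In Paneth cells 55 of the 60 factors had enough UMIs to be tested, and 32 of them rose and 2 fell in the IEC-KO libraries. The 32 were 58.2% of the factors tested, beside 20.2% of all genes called higher and 19.8% called lower. The median log2 fold change of all 55 tested factors was 0.28. By library size only, all 55 were called higher, beside 70.4% of all genes higher and 3.63% lower, and neither of the 2 lower calls stood. The 2 that fell were Eif3b, which encodes an eIF3 core subunit, and Eif4e2, which encodes a cap-binding protein related to eIF4E. Leaving out 1 library at a time, the factors' median lay between 0.27 and 0.29. The count of higher calls was 17 when every cell was thinned to 2000 UMIs, beside 10.2% of all genes. It was 5 among cells with a Defa share of 45 to 55%, beside 2.12% of all genes. There the IEC-KO libraries held only 20 and 12 cells. Markers of other cell types also moved in the Paneth sums. The enterocyte markers summed to 1270 and 1276 CPM in the fl/fl libraries and 453 and 505 CPM in the IEC-KO libraries and the cycling markers to 195 and 199 against 104 and 114. Of the 8 goblet markers 4 fell and 2 rose, Muc2 and Spdef (log2 0.40 and 0.56). By library size only the enterocyte markers ran from log2 -1.07 (Sis) to -0.42 (Alpi). The cycling markers then ran from log2 -0.50 (Stmn1) to 0.39 (Pcna). Of the goblet markers that fell, Tff3 turned positive on that scale (log2 0.17). The part of other cell types in the factors' values was not tested.

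**Figure D2:**
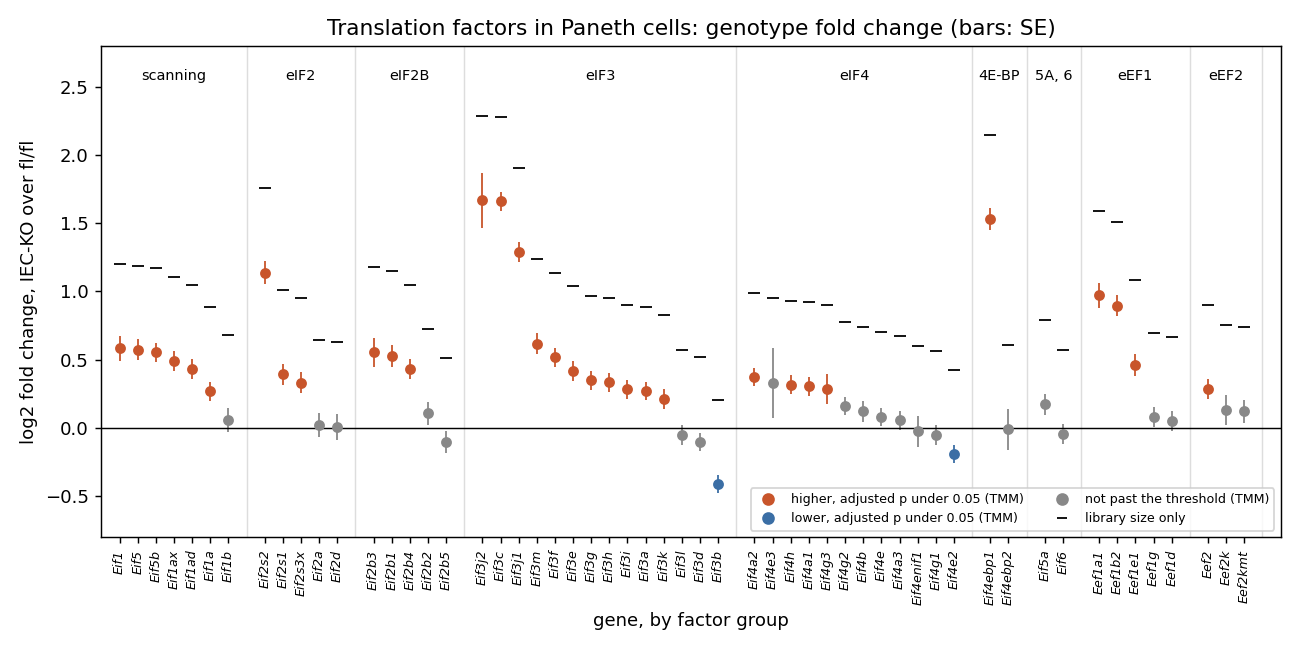
Log2 fold change (IEC-KO over fl/fl) in Paneth cells for the 55 tested factors, by group, with TMM scaling (points, bars are SE) and with library size only (black dashes). Red points rose and blue points fell at an adjusted p under 0.05; 32 points are red, 2 are blue, and every dash lies above 0.

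Eif4ebp1, at chr8:27260329-27276674 (mm10, plus strand), had the largest rise outside eIF3. It stood at 59.9 and 58.1 CPM in the fl/fl Paneth sums and at 184 and 157 CPM in the IEC-KO sums. Both IEC-KO libraries were above both fl/fl libraries, with a 2.89-fold rise (log2 1.53 ± 0.08 SE, adjusted p = 1.4e-12). This gene also rose per cell, from 2.34 and 2.40 UMIs a Paneth cell to 3.41 and 4.55. The related Eif4ebp2 stayed at 2.04 and 2.13 CPM against 1.82 and 2.24, so its groups overlapped (log2 -0.01 ± 0.15, adjusted p = 0.96). Eif4ebp3, the third 4E-BP gene, had 1, 4, 2 and 2 UMIs in the 4 Paneth sums and was not tested.

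The eIF2 complex carries the initiator tRNA, and 3 of the 5 genes in its group rose, beside 20.2% of all genes. Eif2s2, the gene of the beta subunit (chr2:154871410-154892935, minus strand), had 112 and 121 CPM in the fl/fl libraries and 235 and 277 CPM in the IEC-KO libraries. It rose 2.20-fold (log2 1.14 ± 0.08, adjusted p = 4.8e-10), and the library labelled IEC-KO 2 was the highest. The alpha subunit gene Eif2s1, whose product the eIF2 kinases phosphorylate, moved less, from 11.7 and 12.2 CPM to 16.6 and 14.9 CPM (log2 0.39 ± 0.08, adjusted p = 0.00032). The gamma subunit gene Eif2s3x moved least of the 3, with a log2 fold change of 0.33 ± 0.08. It is X-linked, as is Eif1ax, and the libraries differed in sex makeup. Xist was higher in the IEC-KO Paneth sums (log2 1.71) and the Y-linked Ddx3y lower (log2 -1.74). The study describes its mice as matched for sex and age. This difference went with genotype in all 4 libraries. Its part in the X-linked factors, and in every other genotype comparison here, was not tested. Eif2a and Eif2d, which deliver initiator tRNA in other ways, had log2 fold changes of 0.02 and 0.01 and overlapped between the groups.

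Of the 5 eIF2B genes, which encode the exchange factor that recharges eIF2 with GTP, 3 rose, beside 20.2% of all genes. Eif2b1 went from 8.80 and 9.99 CPM to 13.4 and 13.6 CPM (log2 0.53 ± 0.08, adjusted p = 1.9e-05), and Eif2b4 from 10.9 and 10.3 CPM to 13.9 and 14.6 CPM (log2 0.43 ± 0.08). Eif2b3 had the largest log2 fold change of the group at 0.55 ± 0.10, from a low level of 3.67 and 4.01 CPM. Eif2b2 and Eif2b5, with log2 fold changes of 0.11 and -0.11, did not pass the test and overlapped between the groups. With cells thinned to 2000 UMIs none of the 3 was called, and the log2 fold changes were 0.25 for Eif2b1, 0.44 for Eif2b3 and 0.07 for Eif2b4.

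The eIF3 complex is the scaffold that holds the small subunit ready for the mRNA. Of its 14 genes 11 rose and 1 fell, beside 20.2% of all genes higher and 19.8% lower. The median log2 fold change of the group was 0.34. The widest spread of any group lay here. Eif3c, a core subunit gene (chr7:126546455-126566411, minus strand), had 36.9 and 35.5 CPM in the fl/fl libraries and 116 and 114 CPM in the IEC-KO libraries, a 3.16-fold rise (log2 1.66 ± 0.07, adjusted p = 2.8e-14). Eif3j1 (chr2:122028546-122056598, plus strand) encodes a loosely bound subunit and went from 26.5 and 25.5 CPM to 59.0 and 67.5 CPM (log2 1.29 ± 0.07, adjusted p = 7.6e-12). Its near copy Eif3j2 had a log2 fold change of 1.67 ± 0.20 on only 54, 65, 67 and 187 UMIs. The value of Eif3j2 is thus uncertain. How reads that match both copies were counted was not checked, which limits the value of Eif3j1 as well. The call of Eif3j2 was lost with thinned cells (adjusted p = 0.18), whereas Eif3c and Eif3j1 kept log2 fold changes of 1.68 and 1.15.

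Most eIF3 genes moved far less than Eif3c. The most abundant, Eif3k, had 122 and 127 CPM against 149 and 140 CPM (log2 0.21 ± 0.07, adjusted p = 0.022). Without either fl/fl library its log2 fold change was 0.18 or 0.23 but not called; such a fit takes the spread of the lone fl/fl library from the IEC-KO pair. Eif3f had 108 and 110 CPM against 161 and 152 CPM, a 1.43-fold rise (log2 0.52 ± 0.07, adjusted p = 4.4e-06). Eif3b, the gene of another core subunit (chr5:140419328-140443360, plus strand), went the other way, from 33.9 and 32.7 CPM to 24.9 and 25.2 CPM. Its groups did not overlap, and it was 1.33-fold lower relative to the median gene (log2 -0.41 ± 0.07, adjusted p = 4.0e-05) but higher by library size only (log2 0.21).

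The 7 genes grouped under scanning and start site choice were Eif1, Eif1b, Eif1a, Eif1ax, Eif1ad, Eif5 and Eif5b. Of these 6 rose, beside 20.2% of all genes. The group thus includes Eif5b, whose product joins the subunits. Eif1, whose product guards against wrong start codons, was the most abundant after Eef1a1, at 374 and 375 CPM in the fl/fl libraries and 614 and 508 CPM in the IEC-KO libraries (log2 0.58 ± 0.09, adjusted p = 2.7e-05). Eif5, which encodes the GTPase-activating protein of eIF2, went from 74.8 and 75.1 CPM to 121 and 103 CPM (log2 0.57 ± 0.08, adjusted p = 3.2e-06). Eif1b, a close relative of Eif1, did not follow, at 13.8 and 13.7 CPM against 16.1 and 12.9 CPM with overlapping groups.

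The eIF4 group held the genes with Eif4 symbols outside the 4E-BP genes, among them those for cap-binding proteins, helicases and scaffolds. Of its 12 tested genes 4 rose (33.3%) and 1 fell (8.33%), beside 20.2% of all genes higher and 19.8% lower. The median log2 fold change was 0.14, beside 0.34 in eIF3 and 0.49 in the scanning group. The helicase gene Eif4a1 went from 130 and 129 CPM to 162 and 158 CPM (log2 0.30 ± 0.07, adjusted p = 0.0015), and Eif4a2 had the largest value of the group (log2 0.37 ± 0.07). Eif4e itself, at 23.8 and 24.5 CPM against 26.1 and 25.1 CPM, and the scaffold gene Eif4g1, at 29.9 and 29.6 CPM against 26.7 and 30.5 CPM, did not pass the test. Eif4g2, which encodes a relative of eIF4G without the eIF4E site, had 79.8 and 81.5 CPM against 93.0 and 87.5 CPM (adjusted p = 0.067). Eif4e2 had 30.0 and 31.2 CPM against 26.7 and 26.8 CPM (log2 -0.19 ± 0.07, adjusted p = 0.025), turned positive by library size only (log2 0.43), and was not called by DESeq2 (log2 -0.19) or without either fl/fl library (log2 -0.23 or -0.17). Within a library the ratio of Eif4ebp1 to Eif4e, its partner's gene, does not depend on the scaling, and it was higher in both IEC-KO libraries than in both fl/fl libraries.

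**Figure D3:**
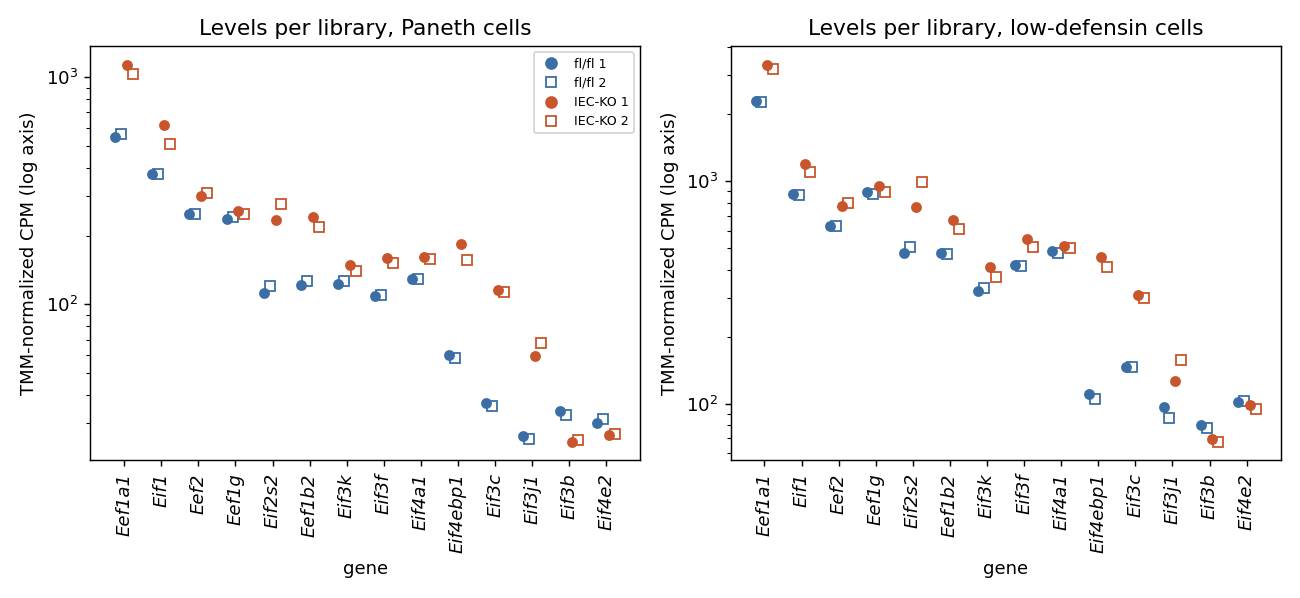
TMM-normalized CPM (log axes, 1 scale per panel) of 14 factors in Paneth cells (left) and low-defensin cells (right); each point is 1 library. Eif4ebp1, Eif3c and Eif3j1 were apart between the genotypes in both panels, while Eef1g and Eif4e2 were close together.

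Among the elongation factors, 3 of the 5 tested genes with Eef1 symbols rose, beside 20.2% of all genes. The median log2 fold change of the 5 was 0.46. That median is the value of Eef1e1, which shares the symbol but encodes a protein of another complex. Eef1a1, the most abundant factor, had 547 and 560 CPM in the fl/fl Paneth sums and 1134 and 1036 CPM in the IEC-KO sums, a 1.96-fold rise (log2 0.97 ± 0.09, adjusted p = 2.2e-08). It made up 15.5% and 15.7% of the factors' UMIs in the fl/fl libraries and 21.5% and 20.9% in the IEC-KO libraries. Eef1b2, which encodes the exchange subunit for eEF1A, rose with it, from 121 and 127 CPM to 243 and 218 CPM (log2 0.89 ± 0.08, adjusted p = 5.1e-09). Eef1e1, which encodes a protein of the multi-tRNA synthetase complex, rose from 7.05 and 6.87 CPM to 9.95 and 9.30 CPM (log2 0.46 ± 0.08, adjusted p = 0.00012). The other subunit genes of the exchange complex did not pass the test: Eef1g had 239 and 242 CPM against 257 and 250 CPM (log2 0.08 ± 0.07, adjusted p = 0.44), and Eef1d, which overlaps Naprt on its strand, had a log2 fold change of 0.05. Eef2, the gene of the translocase, rose 1.22-fold (log2 0.28 ± 0.08, adjusted p = 0.0048), from 249 and 250 CPM to 301 and 308 CPM. Without either fl/fl library its log2 fold change was 0.27 or 0.28 but not called. Eif5a, which encodes the hypusinated factor that helps peptide bonds form, and Eif6, which keeps the large subunit free, had log2 fold changes of 0.17 and -0.04 and did not pass the test.

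The other 5 members could not be tested. Eef1a2, Eif4e1b and Eif2c5 had 0 UMIs in all 8 sums, which allows up to 0.0974 CPM before scaling in the shallowest Paneth sum (3 counts of its total, counting error only). Eif5a2 had 0, 0, 0 and 4 UMIs in Paneth cells, and Eif4ebp3 is given above. Eif2c5 is annotated as a noncoding RNA and belongs to no factor group.

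Low-defensin cells are a mixture. The goblet markers summed to 122960 and 119096 CPM in the fl/fl libraries and 141984 and 142488 CPM in the IEC-KO libraries. The Paneth markers summed to 19397 and 19187 CPM against 24577 and 23496 CPM in the same order. Of the 55 factors tested there, 23 rose and 2 fell in the IEC-KO libraries, beside 17.0% and 16.7% of all 12377 genes, with a median log2 fold change of 0.14. By library size only the counts were 12 higher and 9 lower, beside 9.47% and 30.6% of all genes, and the median was -0.01 where the median of all genes was -0.15. Without the library fl/fl 1, 13 were called higher, beside 10.6% of all genes. Markers of other cell types moved as well. The cycling markers summed to 960 and 969 CPM in the fl/fl libraries and 528 and 548 CPM in the IEC-KO libraries. The enterocyte markers summed to 3573 and 3851 against 2336 and 2089, and the stem markers to 176 and 186 against 146 and 164. The enteroendocrine markers summed to 444 and 467 against 1489 and 1326. A gate kept low-defensin cells with at least 2 UMIs of Mki67 and Top2a after thinning (149, 125, 256 and 259 cells). With it 2 factors were called higher, beside 1.23% of all genes, and the factors' median was 0.0060. A gate on Muc2 left both counts within 1.5 times. Beyond these gates, the part of cell makeup in the factors' values was not tested. The immune markers summed to 5.38 to 6.56 CPM in all low-defensin cells. In Paneth cells they summed to 44.3 and 37.1 CPM in the fl/fl libraries and 12.8 and 10.1 CPM in the IEC-KO libraries, nearly all of it Lyz2, a close copy of Lyz1 whose counts are therefore uncertain, while Ptprc had at most 17 UMIs in any sum.

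Eif4ebp1 had the largest fold change of the factors in this class, at 111 and 106 CPM in the fl/fl libraries and 459 and 413 CPM in the IEC-KO libraries, a 4.03-fold rise (log2 2.01 ± 0.07, adjusted p = 3.6e-14; log2 1.86 by library size only). Eif3c followed among the well-counted genes, from 147 and 146 CPM to 307 and 299 CPM (log2 1.05 ± 0.06, adjusted p = 1.6e-10). Eif2s2 went from 477 and 507 CPM to 764 and 996 CPM (log2 0.84 ± 0.09), Eif3j1 from 96.4 and 86.3 CPM to 127 and 157 CPM (log2 0.63 ± 0.08) and Eef1a1 from 2295 and 2279 CPM to 3341 and 3204 CPM (log2 0.52 ± 0.07). In each of these genes both IEC-KO libraries stood above both fl/fl libraries, and the log2 fold change was positive by library size only as well. Eif2a, which did not pass the test in Paneth cells, fell here from 30.7 and 33.6 CPM to 23.5 and 24.2 CPM (log2 -0.43 ± 0.07, adjusted p = 0.00011; log2 -0.58 by library size only). Eif3b was lower in both classes with TMM scaling, here by a log2 fold change of -0.21 ± 0.06.

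Whether the genotype difference itself differed between the classes was tested in a model of all 8 sums with a block for each library. At an adjusted p under 0.05 the term was called positive, a higher log2 fold change in Paneth than in low-defensin cells, for 22 of the 55 factors and negative for 3, beside 11.0% and 11.3% of all 13039 genes. The 22 include Eif2a, which fell in low-defensin cells and did not pass the test in Paneth cells. Eif3j1 (log2 0.66 ± 0.06), Eif3c (log2 0.62 ± 0.06) and Eef1b2 (log2 0.46 ± 0.06) had the largest positive terms. The negative terms belonged to Eif4ebp1 (log2 -0.48 ± 0.06, adjusted p = 3.5e-11), Eif6 (log2 -0.21 ± 0.06) and Eif3b (log2 -0.19 ± 0.06). By library size only all 55 terms were called positive, beside 73.2% of all genes called positive and 0.514% called negative, and these 3 stood at 0.28, 0.55 and 0.57 where the median gene stood at 0.75. Without the library fl/fl 1, 13 terms were called positive, beside 6.50% of all genes.

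**Figure D4:**
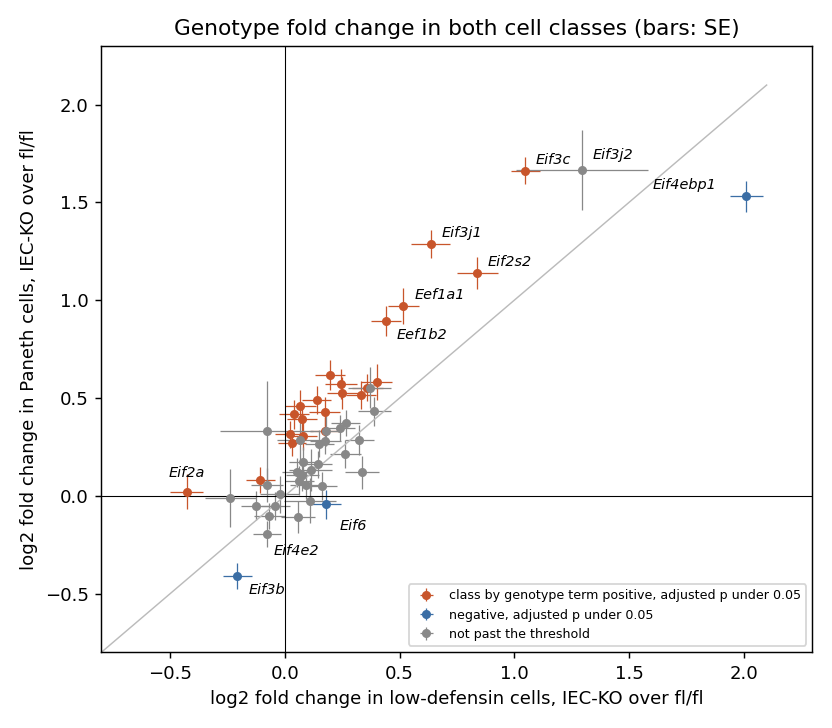
Log2 fold change (IEC-KO over fl/fl, TMM scaling) of the 55 tested factors in low-defensin cells (horizontal) and Paneth cells (vertical), with SE bars and a line of equality. Red points had a positive class by genotype term at an adjusted p under 0.05 (22 genes) and blue points a negative one (3 genes), Eif4ebp1 lying below the line and Eif3c and Eif3j1 above it.

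Between the classes of the same fl/fl libraries, 14 factors were higher and 28 lower in Paneth than in low-defensin cells. These were 25.5% and 50.9% of the factors tested, beside 27.7% and 30.7% of all genes. In the IEC-KO libraries the counts were 19 higher and 18 lower, beside 24.7% and 25.5%. In the fl/fl libraries all 5 genes of the eIF2 and initiator tRNA delivery group were lower in Paneth cells. Furthest was Eif2a (log2 -0.76), which delivers initiator tRNA in another way than eIF2. In the IEC-KO libraries 4 of these 5 were lower and 0 higher, with a median log2 fold change of -0.20. Of the 14 eIF3 genes 9 were lower and 3 higher in the fl/fl libraries, with Eif3e furthest down (log2 -0.82). In the IEC-KO libraries 5 eIF3 genes were lower and 5 higher. Eif4ebp1 was instead higher in Paneth cells of both genotypes, by a log2 fold change of 0.67 in the fl/fl libraries and 0.20 in the IEC-KO libraries. Scaled by library size only, all 55 factors, Eif4ebp1 included, were lower in Paneth cells of both genotypes, as were 92.5% (fl/fl) and 90.4% (IEC-KO) of all genes, while 1.15% and 1.64% were higher.

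Other genes of the same pathway were read in Paneth cells from lists of neighbours. Beside them, 20.2% of all genes in these cells were called higher and 19.8% lower. Of the 4 eIF2 kinases none passed the test, with log2 fold changes from -0.39 for Eif2ak3 to 0.37 for Eif2ak4. Both regulatory subunits of the eIF2 phosphatase rose: Ppp1r15a from 1.65 and 1.57 CPM to 5.81 and 6.53 CPM (log2 1.95 ± 0.12), and Ppp1r15b by a log2 fold change of 0.24 ± 0.08. Of the 5 genes for poly(A)-binding proteins and their partners 3 rose, led by Pabpc1, from 64.5 and 73.1 CPM to 118 and 116 CPM (log2 0.76 ± 0.07), with Paip1 and Paip2b at 0.56 and 0.28. Among release and recycling genes Denr, Abce1 and Etf1 rose (log2 0.37, 0.37 and 0.23) and Mcts2 fell (log2 -0.44, but 0.18 by library size only). Of the enzymes that make hypusine on eIF5A, Dhps rose (log2 0.37 ± 0.09) and Dohh did not pass the test (log2 -0.10). In low-defensin cells Ppp1r15a rose again (log2 2.24 ± 0.16) and the kinase Eif2ak2 fell (log2 -0.45 ± 0.08). The others that rose there had small log2 fold changes: Ppp1r15b 0.22, Pabpc4 0.28, Paip2 0.18, Etf1 0.24, Denr 0.18 and Dhps 0.26.

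The 10 factors listed as carrying a 5′ terminal oligopyrimidine tract, the leader through which mTORC1 controls translation, summed to 1561 and 1590 CPM in the fl/fl Paneth libraries and 2446 and 2295 CPM in the IEC-KO libraries. Of this sum Eef1a1 alone gave 547 and 560 against 1134 and 1036 CPM. At an adjusted p under 0.05, 7 rose and 0 fell in Paneth cells, beside 58.2% of the factors tested and 20.2% of all genes called higher. In low-defensin cells 5 rose, beside 41.8% of the factors and 17.0% of all genes, and the medians were 0.31 and 0.17 on the log2 scale. These are mRNA levels, and translation itself was not measured.

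Promoters of 8 factors, chosen as given after the sequences, are shown for a look at the sequence before their start sites. Each has 80 bases before and 20 after the RefSeq start (GRCm38.p6) and is written 5′ to 3′ on the gene's strand. Capitals mark CACGTG, the E-box bound by MYC and related factors, and runs of 8 or more pyrimidines within the printed bases. Eef2 and Eif3k also hold such a run within 50 bases of the start, which the printed bases do not show whole.
Eif3c, chr7:126566347-126566446, minus strand: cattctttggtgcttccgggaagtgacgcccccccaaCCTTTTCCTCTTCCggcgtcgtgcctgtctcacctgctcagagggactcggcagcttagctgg
Eif3j1, chr2:122028500-122028599, plus strand: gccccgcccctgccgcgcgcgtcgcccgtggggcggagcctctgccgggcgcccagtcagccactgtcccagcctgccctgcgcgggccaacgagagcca
Eif2s2, chr2:154892887-154892986, minus strand: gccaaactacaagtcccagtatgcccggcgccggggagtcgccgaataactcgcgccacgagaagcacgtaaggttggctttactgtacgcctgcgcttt
Eef1a1, chr9:78481705-78481804, minus strand: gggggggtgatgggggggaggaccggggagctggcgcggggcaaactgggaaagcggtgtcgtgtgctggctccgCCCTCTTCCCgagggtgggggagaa
Eif3b, chr5:140419225-140419324, plus strand: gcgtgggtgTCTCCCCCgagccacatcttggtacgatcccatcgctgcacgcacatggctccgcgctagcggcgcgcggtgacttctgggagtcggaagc
Eif3f, chr7:108934335-108934434, plus strand: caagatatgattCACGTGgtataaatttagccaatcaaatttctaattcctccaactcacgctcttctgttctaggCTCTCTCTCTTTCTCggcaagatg
Eif3k, chr7:28981869-28981968, minus strand: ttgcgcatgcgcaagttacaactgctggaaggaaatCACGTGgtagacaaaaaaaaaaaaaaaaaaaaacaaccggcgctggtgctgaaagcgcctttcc
Eef2, chr10:81176551-81176650, plus strand: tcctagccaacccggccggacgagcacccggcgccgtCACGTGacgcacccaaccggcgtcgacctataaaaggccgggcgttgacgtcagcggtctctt

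Eif3c, Eif3j1, Eif2s2 and Eef1a1 are shown as the well-counted genes with large rises, Eif3b as the eIF3 gene that fell, and Eif3f, Eif3k and Eef2 as genes that hold CACGTG near the start, at 68, 44 and 43 bases before it. The choice sets no relation between the motif and the size of a rise: other genes that rose, among them Eif1, Eif5 and Eif2s1, hold no CACGTG in their window. Genes that did not pass the test in Paneth cells, among them Eif1b and Eif4g1, hold it in theirs. Over the window from 250 bases before to 50 after the start, 14 of the 60 promoters of the factors held CACGTG (23.3%, in 12 of the 46 factors with an entry), beside 2349 of all 32851 promoters (7.15%). Since CACGTG reads the same on both strands, each match counts once. The motif TGATGNAA, searched on both strands as a form of the element bound by ATF4 with CHOP or C/EBP partners, lay in 2 of the 60 promoters (3.33%), beside 3.97% of all promoters. A pyrimidine run of 8 or more within 50 bases of the start lay in 24 of the 60, beside 35.7% of all promoters. These are letters in a window and not bound sites. Eif4ebp1 had no promoter entry.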

How the data were processed

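RNA from sorted crypt cells was made into 4 libraries with the 10x Genomics Chromium 3′ V2 kit. The counts deposited by the authors are whole UMI counts per gene and cell, made with Cell Ranger 2.1.1 on mm10 per the submitters' processing notes (the study's methods name another version), and all barcodes in the files were kept, doublets included. Total depth was 87922473 to 127094508 UMIs a library, which limits precision mainly for genes with few UMIs. Counts were summed per library and class, and the sums tested with edgeR 4.0.16 (quasi-likelihood test, TMM scaling, filterByExpr, Benjamini-Hochberg adjustment over all genes tested, threshold 0.05). Classes were compared in 1 model of all 8 sums with a library block. The scripts were tested on simulated data. DESeq2 1.42.0, other scalings, filters, class limits, cell thinning, doublet removal (Scrublet in scanpy 1.11.5) and leaving out each library were alternatives. Positions are from GENCODE M21 and promoters from RefSeq (GRCm38.p6), with 46 of the 60 members matched. Members and lists were chosen with earlier results of these data known. The text names the 4E-BP genes, and per group the pair with the highest level, the largest and smallest fold change and any call against the group. It also names untested members, neighbours that passed the test and the leading class by genotype terms. Eif2a, Eif3e, Eef1e1, Eif4e, Eif4g1, Eif2b2, Eif2s3x, Eif1ax and genes given for context were added after their values were seen. Replicate libraries differed beyond sampling noise. At most 132 cell barcodes were shared by any pair of libraries.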

Additional observations from a re-analysis of the deposited data

Results flagged for a closer look

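The genotype difference itself differed between Paneth and low-defensin cells (edgeR's quasi-likelihood test of the class by genotype term) for 22 factors with a larger value in Paneth cells and 3 with a smaller one. Of all genes 11.0% and 11.3% were called in the same order. Among the named genes the term was 0.66 for Eif3j1, 0.62 for Eif3c, 0.46 for Eef1b2, -0.48 for Eif4ebp1, -0.21 for Eif6 and -0.19 for Eif3b, all on the log2 scale. By library size only the last 3 stood at 0.28, 0.55 and 0.57, below the median gene at 0.75.

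The cells between the class limits entered no comparison, and made up 13.0% and 12.6% of the IEC-KO libraries beside 3.30% and 2.77% of the fl/fl libraries. In these cells the factors took 0.619% and 0.684% of UMIs in the fl/fl libraries and 0.937% and 0.934% in the IEC-KO libraries, between the shares of the other classes in each library.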

How the results depend on the processing

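Values are the number of factors called higher, then lower, unless said otherwise. With library size only they were 55 and 0 in Paneth cells, 12 and 9 in low-defensin cells, 55 and 0 for the class by genotype term, and 0 and 55 between classes in either genotype. With the library size outside Defa genes they were 54 and 0, 13 and 9, 55 and 0, 0 and 55 (fl/fl) and 0 and 54 (IEC-KO). Of all genes, 61.7% were then higher in Paneth cells, 9.57% higher and 29.6% lower in low-defensin cells, and 66.2% positive for the term. Between classes 85.0% (fl/fl) and 73.3% (IEC-KO) of all genes were lower. With cells thinned to 2000 UMIs they were 17 and 1, 14 and 1, and 7 and 1, and 14 (fl/fl) and 7 (IEC-KO) were lower between classes. The shares of all genes, in the same order, were 10.2% and 9.88%, 8.16% and 7.68%, and 2.40% and 2.39%. Between classes 11.6% (fl/fl) and 12.8% (IEC-KO) of all genes were lower. DESeq2 gave 1 lower in Paneth and in low-defensin cells, 11 positive class by genotype terms and 8 lower between classes in IEC-KO. Of all genes it called 11.9% and 9.86% lower in Paneth and low-defensin cells, 3.53% positive for the term and 14.0% lower between classes in IEC-KO. For the term it gave no adjusted p for 7078 of 13039 genes. A Defa share of 40% or more gave 1 lower, one of 45 to 55% gave 5 and 0, and the gate on Mki67 and Top2a gave 2 and 0. Of all genes 10.9% were lower at 40% or more, and 2.12% higher and 1.23% lower at 45 to 55%. With the gate 1.23% of all genes were higher and 0.589% lower. Leaving out 1 library at a time gave 1 to 2 lower in Paneth cells, 13 to 26 and 1 to 3 in low-defensin cells, and 13 to 21 and 1 to 3 for the class by genotype term. Cells with a Defa share of 20% or more were added as an alternative after the data were seen. The median log2 fold change in Paneth cells was 0.90 and 0.77 with the 2 library sizes, 0.24 with thinned cells, 0.26, 0.032 and 0.33 at Defa shares of 40% or more, 45 to 55% and 20% or more, and 0.27 to 0.29 without 1 library. In low-defensin cells it was -0.0065 and -0.0016 with the 2 library sizes, 0.0060 with the Mki67 and Top2a gate, and 0.12 to 0.16 without 1 library.

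Fold changes of single genes that turned sign, in log2, were these. With library size only and with that outside Defa genes, the Paneth value became 0.61 and 0.48 for Eif4ebp2, 0.43 and 0.29 for Eif4e2, 0.21 and 0.074 for Eif3b, 0.57 and 0.44 for Eif6, and 0.51 and 0.38 for Eif2b5. The class by genotype term became 0.28 and 0.15 for Eif4ebp1, 0.55 and 0.41 for Eif6, and 0.57 and 0.43 for Eif3b. At a Defa share of 45 to 55%, with 20 and 12 IEC-KO cells, the value was -0.18 for Eif1b, -0.27 for Eef1g, -0.28 for Eef1d, -0.15 for Eif4g2, 0.10 for Eif4e2, -0.34 for Eif2d, -0.044 for Eif3k, -0.036 for Eif5a, -0.62 for Eif2b1, -0.031 for Eif2b3, 0.40 for Eif2b5 and -0.99 for Eef2kmt. At 40% or more it was 0.014 for Eif2b5 and -0.18 for Eef2kmt, and at 20% or more 0.033 for Eif4ebp2. Thinning gave -0.067 for Eef1d and 0.082 for Eif2b5, and a filter of at least 10 counts in every sum gave -0.0043 for Eif2d. Without 1 library the value lay between -0.19 and 0.10 for Eif4ebp2, -0.090 and 0.23 for Eif1b, -0.020 and 0.054 for Eif2d, and -0.13 and 0.035 for Eif6. The causes were not tested. With the replicate number as a block, 32 factors were higher and 2 lower in Paneth cells, beside 20.6% and 20.4% of all genes. In low-defensin cells 26 were higher and 2 lower, beside 19.3% and 18.9%, and no count moved by over 1.5 times. The difference between replicates 1 and 2 was hardly correlated between the genotypes (r = 0.034 and 0.051 across genes in the 2 classes). With 1 such difference per genotype, this cannot show whether the number marks a shared batch. The other alternatives, apart from leaving out 1 library, left every count within 1.5 times of the reported one.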
